A study of Mus musculus with 2 samples.

Results

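Complex I (NADH:ubiquinone oxidoreductase) is the entry point of electrons from NADH into the mitochondrial respiratory chain. The genes described here are the 45 nuclear genes whose symbols are Ndufa, Ndufab, Ndufb, Ndufc, Ndufs, Ndufv or Ndufaf followed by a number, and that the GENCODE mouse annotation lists as protein-coding. They were found by gene identifier among 43346 gene rows, and all 45 were present in the tables of both libraries. Of these, 36 encode structural subunits, 8 are numbered assembly factors, and Ndufa4 encodes a protein that was named as a complex I subunit and is now assigned to complex IV.

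The study measured polyadenylated RNA in kidney tissue of a female C57BL/6J mouse, an inbred strain, aged 10 weeks. The labels name no altered allele and no treatment, and there is 1 group. It holds 2 libraries, technical replicates 1 and 2 of biological replicate 1, called library 1 and library 2 here, and the labels date technical replicate 2 to May 2015. Every SD below is therefore technical, with n = 2, and every test compares the reads of these libraries, not conditions or animals, with no replicate check.

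Complex I is an L-shaped assembly. Its matrix arm oxidises NADH in the N module and passes electrons along iron-sulfur clusters to ubiquinone in the Q module, and its membrane arm pumps protons. The catalytic core is shared with bacteria, and in mammals its membrane part is encoded by mitochondrial DNA, while the matrix part and all accessory subunits are nuclear. Assembly factors join the modules and are absent from the finished enzyme. Kidney tubule cells, above all those of the proximal tubule and the thick ascending limb, are rich in mitochondria and depend on oxidative phosphorylation for solute transport.

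Library 1 held 28263730 expected counts and library 2 held 20720537. Expected counts are the estimated numbers of reads per gene, and TPM is a length-corrected share of the library that sums to the same total in each. Mitochondrially encoded genes and 11 nuclear copies of them made up 74.5% of library 1 and 36.5% of library 2 by TPM, which lowers the TPM of every nuclear gene in library 1. All 8 kidney markers examined had counts in both libraries, and Aqp2, the collecting duct water channel, was the only one under TPM 1, in library 1. Of 12 markers of brown fat, skeletal muscle, heart and adrenal gland, 2 exceeded TPM 1, both in library 2 and both brown fat genes. Ucp1, the thermogenic uncoupling protein, had 0.78 TPM in library 1 against 4.39 TPM in library 2, and Cidea, a lipid droplet protein, had 0.1 and 2.12 TPM. Elovl3, the other brown fat marker, had 0.1 and 0.14 TPM, and the heart marker Myh6 had 0 and 0.57 TPM. The summed TPM of the 12 markers was 1.52 in library 1 and 8.85 in library 2, and their part in the complex I levels was not tested.

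Reads of all 45 genes were counted in both libraries of the kidney. TPM was at least 1 for all 45 genes in library 2 and for 40 in both libraries, and their median was 31.2 TPM in library 1 against 252 TPM in library 2. Together the 45 genes made up 0.337% of library 1 and 1.25% of library 2 by TPM, or 1.32% and 1.97% once mitochondrial genes and their copies were left out. For the level within a library of bulk tissue, the number of cells of a type and the RNA per cell cannot be told apart. This limit concerns levels and is no account of the difference between the libraries, which are technical replicates of 1 biological replicate. TPM was higher in library 2 for 41 genes and higher in library 1 for 4 (Ndufv2, Ndufb4, Ndufaf4 and Ndufaf1). On TPM rescaled without the mitochondrial genes and their copies, 16 genes were higher in library 1. Genes in general also had higher TPM in library 2. Over all 15553 genes with at least 10 counts in sum, the median was 2.12 TPM in library 1 against 9.19 TPM in library 2. After the same rescaling it was 8.32 and 14.5 TPM. How many of all genes were higher in each library was not counted.

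**Figure D1:**
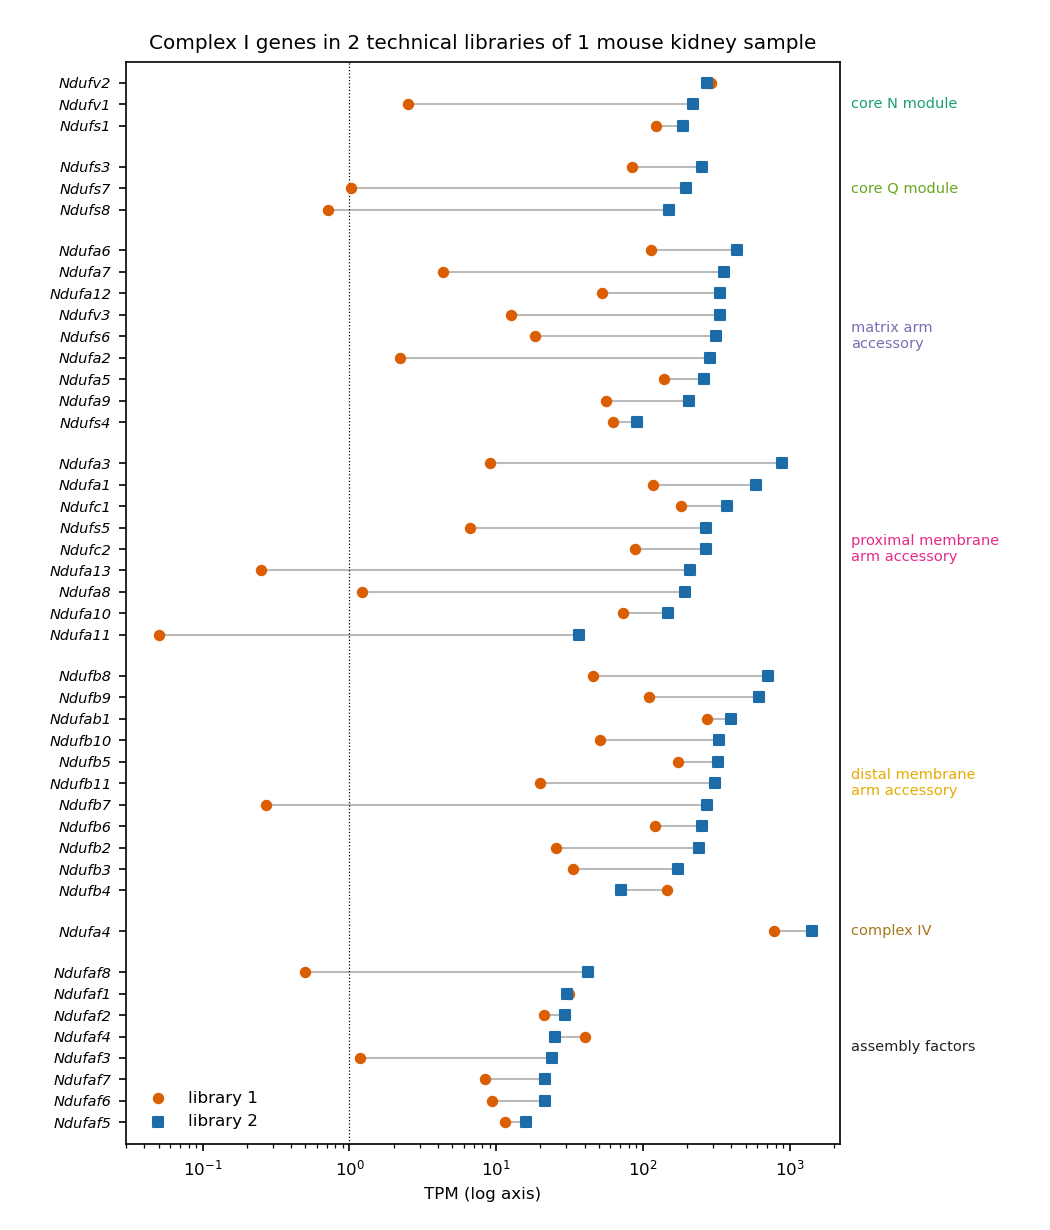
TPM of 44 of the 45 genes on a log axis in library 1 (circles) and library 2 (squares), grouped by role and joined by a line, with a dotted line at TPM 1. Structural subunits span 36.6 to 884 TPM in library 2 and 0.05 to 290 TPM in library 1, and 5 genes lie left of the dotted line in library 1.

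Structural subunits were far more even in library 2 than in library 1. Their 36 genes had a median of 270 TPM and a range of 36.6 to 884 TPM in library 2, against a median of 48.2 TPM and a range of 0.05 to 290 TPM in library 1. The SD of log2(TPM + 1) across the 36 genes was 0.87 in library 2 and 2.5 in library 1. Assembly factors lay lower. The 8 Ndufaf genes had a median of 24.5 TPM (15.9 to 42) in library 2, and none of them reached the level of a structural subunit other than Ndufa11. In library 1 they had a median of 10.4 TPM (0.5 to 40.3) and overlapped with the structural subunits. Across the 45 genes log2(TPM + 1) in library 1 and library 2 correlated at Pearson r = 0.37 and Spearman rho = 0.379. These points share their libraries and differ in base composition: over the 15 genes under 50% GC r was 0.898, and over the 27 genes at 50% GC or more it was 0.309.

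Among the core subunits of the N module, Ndufv2, which carries an iron-sulfur cluster beside the NADH site, had 290 TPM in library 1 against 273 TPM in library 2, a mean of 282 ± 12.3 (SD, n = 2). Ndufs1, the largest subunit, with several iron-sulfur clusters, had 124 and 189 TPM. Ndufv1, which binds NADH and FMN, had 2.51 TPM in library 1 against 218 TPM in library 2. The 3 partners of the same module thus lay within 1 range in library 2, and Ndufv1 stood far below the other two in library 1.

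Core subunits of the Q module were also uneven between the libraries. Ndufs3 had 83.6 and 252 TPM. Ndufs7, which holds the last iron-sulfur cluster before quinone, had 1.02 TPM (10 counts) in library 1 against 196 TPM (1831 counts) in library 2. Ndufs8, which carries a pair of clusters, was the least abundant core subunit in both libraries, with 0.71 TPM (17 counts) and 151 TPM (1918 counts). Both Ndufs7 and Ndufs8 were over an order of magnitude lower in library 1, and Ndufs3 was not.

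The median level of the 9 accessory subunits of the matrix arm was 52.8 TPM in library 1 against 314 TPM in library 2. Ndufa6, an LYR-motif protein, had the highest mean level of the group, 114 TPM in library 1 against 435 TPM in library 2. Ndufs4, whose loss causes a Leigh-like disease, was the lowest of the group in library 2, with 62.6 TPM in library 1 against 91.3 TPM in library 2. Ndufa12 had 52.8 and 336 TPM, and Ndufs6, a zinc protein bound next to it late in assembly, had 18.3 and 314 TPM. The lowest level of the group in library 1 was that of Ndufa2, a thioredoxin-fold subunit, with 2.22 TPM there and 284 TPM in library 2.

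Among accessory subunits of the proximal membrane arm, Ndufa3 had the highest level of any structural gene in library 2 but only rank 32 of all 45 genes in library 1. It had 9 TPM in library 1 against 884 TPM in library 2, a mean of 446 ± 619 (SD, n = 2), so the SD exceeded the mean. Ndufa1, an X-linked subunit, had 117 and 589 TPM, and Ndufc1 had 182 and 374 TPM. Ndufa13, also known as Grim19, had 0.25 TPM (8 counts) in library 1 against 208 TPM (3596 counts) in library 2. Ndufa8, one of the subunits with twin CX9C motifs, had 1.21 and 192 TPM. Ndufa11 had the lowest level of any structural gene, 0.05 TPM (4 counts) and 36.6 TPM (1488 counts). The deposited TPM of Ndufa11 rests on a transcript length of 2661 bases, against 545 bases for the same transcript in GENCODE M21, and at that length it would be 0.35 and 255 TPM. The same correction moves Ndufa3 the other way, from 349 to 515 bases, and its leading transcript from 8.32 and 864 TPM to 4.07 and 426 TPM, below the 715 TPM of Ndufb8 in library 2.

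Accessory subunits of the distal membrane arm had a median of 51 TPM in library 1 against 308 TPM in library 2. Ndufb8, a subunit widely used as a marker of complex I assembly, had 45.3 and 715 TPM, a mean of 380 ± 474 (SD, n = 2), and Ndufb9 had 110 and 616 TPM. Ndufab1, the mitochondrial acyl carrier protein, had 273 and 395 TPM, with an SD of 86.7 around a mean of 334. Its protein is also bound in the matrix arm, and the gene was counted here with the distal arm only. Ndufb7, another twin CX9C protein, had 0.27 TPM (9 counts) in library 1 against 272 TPM (1972 counts) in library 2. Ndufb4 went the other way, with 146 TPM in library 1 against 70.3 TPM in library 2. Ndufb3 had the lowest mean of the group, 33.2 and 174 TPM.

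Ndufa4, now assigned to complex IV, was the most abundant of all 45 genes in both libraries, with 782 TPM in library 1, 1425 TPM in library 2 and a mean of 1104 ± 455 (SD, n = 2). The assembly factors held the other end. Ndufaf4 had 40.3 and 25.1 TPM, the highest mean of the 8 at 32.7 ± 10.7, and Ndufaf1, a chaperone of the membrane arm intermediate, followed with 31.2 and 30.2 TPM. Ndufaf2, a paralog of Ndufa12 that occupies its place during assembly, had 21.1 and 29.5 TPM. The 4 lowest means among all genes were those of Ndufaf3 (1.18 and 23.9 TPM), Ndufaf5 (11.4 and 15.9 TPM), Ndufaf7 (8.44 and 21.6 TPM) and Ndufaf6 (9.35 and 21.6 TPM). Ndufaf5 hydroxylates the Ndufs7 protein, and Ndufaf7 is a methyltransferase. Ndufaf8, which works with Ndufaf5, had 0.5 TPM (9 counts) in library 1 against 42 TPM (288 counts) in library 2.

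The comparison of the libraries asked which genes differed by more than counting error once library sizes were scaled (TMM). Calls required a ratio of at least 2-fold and an adjusted p under 0.05 in a two-sided exact binomial test, adjusted over all 15553 genes tested. Library 2 was called higher for 22 of the 45 genes and library 1 for 4, and 19 genes were not called. Over all genes tested 35.5% were called higher in library 2, 24.9% higher in library 1 and 60.5% in either direction. The median log2 ratio of library 2 over library 1 was 0.98 for the 45 genes and 0.12 for all genes tested. The median was 1.15 for the 36 structural subunits (20 higher in library 2, 2 higher in library 1) and −0.44 for the 8 assembly factors (2 and 2). Without a minimum ratio 43 of the 45 genes passed the adjusted p, as did 12986 of all 15553 genes tested. Of the 45, only Ndufaf6 and Ndufaf7 did not. Scaling by total counts moves the log2 ratios of all genes up by 0.9 at the median, and then 30 members were higher in library 2 and only Ndufaf4 was higher in library 1. Of all genes, 49.1%, 4.57% and, in either direction, 53.7% were called on that scale.

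The 5 largest ratios belonged to genes with 17 counts or fewer in library 1. Ndufa13 (chr8:69894180-69902558, minus strand, mm10) had 8 counts in library 1 and 3596 in library 2, a scaled ratio of 328-fold with an exact 95% interval of 166 to 760. Ndufa11 (chr17:56717767-56722141) followed at 271-fold (106 to 997), Ndufb7 (chr8:83566671-83571626) at 160-fold (84 to 350), Ndufs7 (chr10:80249121-80256794) at 133-fold (72.4 to 279) and Ndufs8 (chr19:3908863-3912774) at 82.3-fold (51.2 to 141). The intervals cover counting error only, and for all 5 the exact binomial test with Benjamini-Hochberg adjustment gave an adjusted p under 1e-300. These 5 come from the Q module and from both parts of the membrane arm, so no module held them all.

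The lowest ratios were smaller. Ndufaf4 (chr4:24898083-24905001) had 2548 counts in library 1 and 849 in library 2, a log2 ratio of −2.04 with a counting SE of 0.057. Ndufaf1 (chr2:119655446-119662827) had 1062 and 528 counts and a log2 ratio of −1.46 (SE 0.077, adjusted p = 3.08e-86 in the exact binomial test). Ndufv2 had 6758 and 4353 counts and Ndufb4 had 1392.5 and 895.31, and both had a log2 ratio of −1.09. Ndufs1, at −0.89, was the nearest gene that was not called. Just inside the limit on the other side lay Ndufb3 (1.03), Ndufb9 (1.13) and Ndufa12 (1.16), and just outside it Ndufa1 and Ndufs3 (0.98 each).

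The ratio moved with the GC content of the transcripts, for complex I genes as for the rest. Across the 42 members with a GC value (all but Ndufa11, Ndufs4 and Ndufaf7) the log2 ratio and GC content had a Spearman rho of 0.835, and across 11508 genes with at least 100 counts a rho of 0.918. These are correlations across genes of the same pair of libraries. All 13 members at 55% GC or more were called higher in library 2, as were 92.5% of all genes in that class. Among the 14 members from 50 to 55% GC, library 2 was called higher for 7 and library 1 for 1, and the shares of all genes there were 49.6% and 1.82%. Of the 12 members from 45 to 50% GC, 11 were not called and 1 was called higher in library 1, and for all genes in that class the shares called toward library 2 and library 1 were 3.83% and 18%. The 3 members under 45% GC were Ndufaf4 (39.9%) and Ndufaf1 (43.7%), both called higher in library 1, and Ndufb3 (45% after rounding), called higher in library 2. Of all genes under 45% GC, 79.3% were called toward library 1 and 0.332% toward library 2, so Ndufb3 went against most genes of its class. Levels in library 1 were lower at higher GC across the 42 members (rho = −0.661), whereas in library 2 the rho was 0.079.

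**Figure D2:**
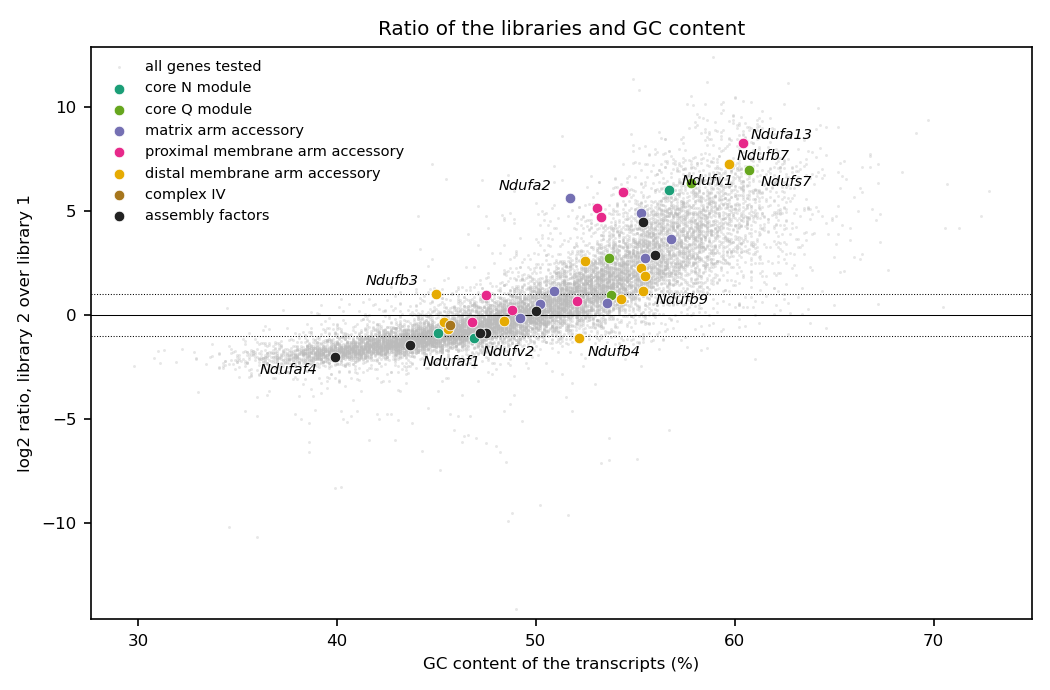
Log2 ratio of library 2 over library 1 (TMM-scaled counts) against transcript GC content in percent, with all genes tested in grey, the 42 complex I genes with a GC value coloured by role, and dotted lines at log2 ratios of 1 and −1. Complex I genes follow the grey cloud, and Ndufb4, Ndufa2 and Ndufb3 lie at its edges.

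With a smooth GC trend removed, fewer members stayed apart. Of the 42 genes, library 2 was then called higher for 15 and library 1 for 3, with 24 not called, beside 11.1%, 10.2% and 21.3% (either direction) of all genes under the same treatment. The median log2 ratio of the members was 0.28. It was 0.34 for the 34 structural subunits with a GC value and −0.25 for the 7 such assembly factors, against 1.15 and −0.44 before for all genes of each group. The median GC content of these groups was 53.2% and 47.5%. The largest remaining ratios were those of Ndufa2 (4.82), Ndufa8 (3.92), Ndufa3 (3.82), Ndufs5 (3.24) and Ndufa13 (3.16). The value of Ndufa3 rests on the GC content of Ndufa3-204, which held 0% and 1.73% of its counts, because the deposited length of its leading transcript did not match the annotation. Of these 5, all but Ndufa2, which belongs to the matrix arm, are proximal membrane arm subunits. The value of Ndufs5 leaves out its copy BC002163, which held 67.3% of their summed counts in library 1. Before the trend was removed, the sum of Ndufs5 and its copy had a log2 ratio of 3.13, against 4.7 for Ndufs5 alone. In the 8 genes of the proximal membrane arm with a GC value the median was 2.31, and in the 11 of the distal arm it was −0.06. The 3 genes called higher in library 1 were distal arm genes: Ndufb4 (−2.07), Ndufb9 (−1.47) and Ndufb2 (−1.19). The values of Ndufb4 and Ndufb2 rest on the GC content of transcripts that held 18.3% and 20.2% of their counts in library 1. Most of their library 1 counts lay on transcripts of lower GC content, 46.7% in Ndufb4 and 43.7% in Ndufb2. Before the trend was removed, the sum of Ndufb4 and its copy had a log2 ratio of 0.28. The difference between the groups was not tested, since genes are not replicates of a condition.

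Transcripts within a gene also differed between the libraries. Of the 45 genes, 29 had counts on more than 1 annotated transcript, and in 13 of them the transcript with most counts was not the same in the libraries. In all 13 the leading transcript of library 2 was protein-coding, and in 7 the leading transcript of library 1 was. Where both had a GC value, the leading transcript of library 2 was the richer in GC in 9 of 12 genes. Transcript counts are estimates that divide reads between overlapping models, and in Ndufb7 and Ndufs7 library 1 had only 9 and 10 counts to divide. Among the 32 members with at least 100 counts in library 1, the leading transcript differed in 9. The same shares were not computed over all genes, so they do not set complex I genes apart from others.

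Ndufb4 is given in full because its total and its coding count moved in opposite directions. In library 1 a model with a retained intron (Ndufb4-202, 46.7% GC) held 1138 of its 1392.5 counts and the coding transcript (Ndufb4-201, 52.2% GC) held 254. In library 2 the coding transcript held 891 of 895.31 counts, so the coding share was 18.3% in library 1 and 99.5% in library 2. Ndufs3 changed in the same direction, with 17% of its counts on the coding transcript in library 1 and 97.4% in library 2. Ndufb10 had 46.1% and 98.3%, Ndufc1 10.6% and 62.4%, and Ndufa5, an accessory subunit of the matrix arm, 1.35% and 44.5%.

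In Ndufaf4, a processed transcript without an annotated coding sequence held 91.1% of counts in library 1 and 56.1% in library 2. Ndufb2 and Ndufb8 kept coding transcripts in the lead but exchanged a long model for a short model. Ndufb8-209 (2142 bases, 46.9% GC) held 69.9% of counts in library 1 and 7.85% in library 2, and Ndufb8-201 (680 bases, 55.3% GC) held 18.8% and 90.4%. In Ndufb2 the 4371-base transcript held 65.2% and 20.5%. Ndufv3, which is known for a short and a long protein form, had 75.3% of counts on the short transcript Ndufv3-202 in library 1 and 59.2% in library 2, and 15.7% and 39.6% on the long transcript Ndufv3-201. By count of genes, the coding share was lower in library 1 for 18 of the 29, higher for 8 and equal for 3. Among the 32 members with at least 100 counts in library 1, 11 of which had 1 transcript with counts, it was lower for 13, higher for 6 and equal for 13. These counts have no counterpart over all genes here.

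**Figure D3:**
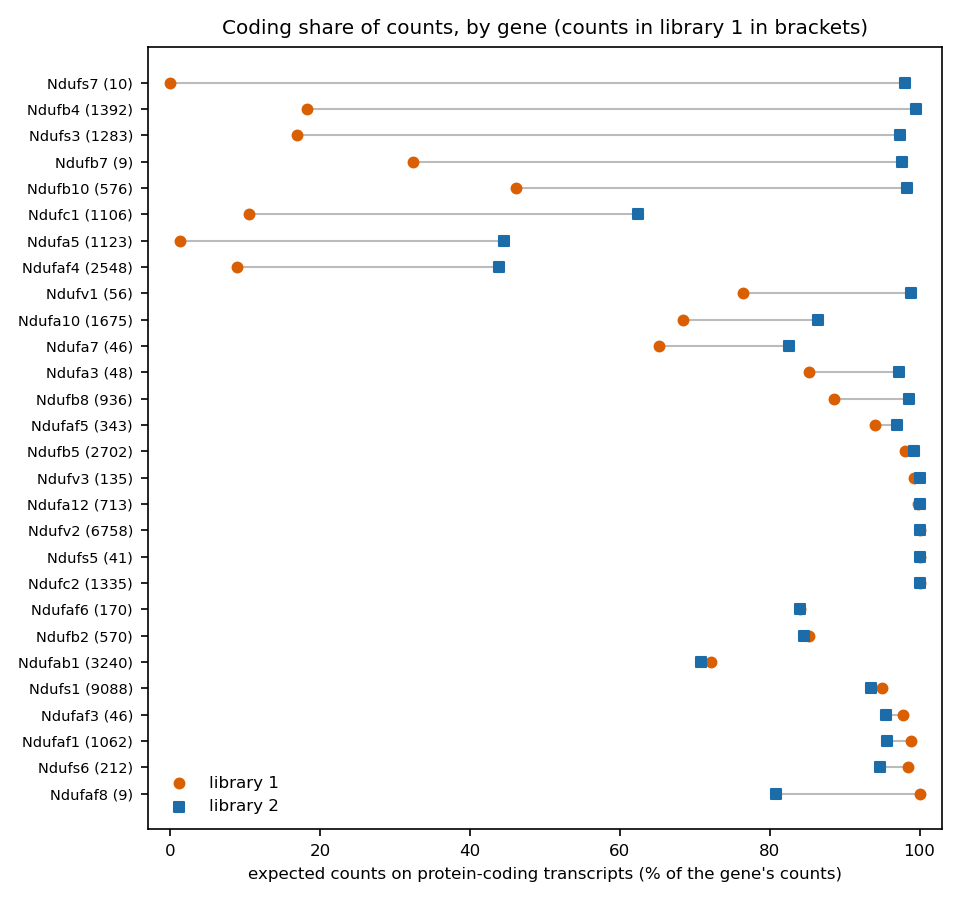
Share of each gene's expected counts on protein-coding transcripts, in percent, in library 1 (circles) and library 2 (squares), for 28 of the 29 genes with counts on more than 1 transcript, with the gene's counts in library 1 in brackets. The 8 genes at the top had a coding share under 50% in library 1, and the others had 65.3% or more.

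In the remaining genes with a different leading transcript, both leading transcripts were coding. Ndufv1-201 held 13.6% of the 56 counts of Ndufv1 in library 1 and 97.5% of 5095 counts in library 2, while Ndufv1-205, the leading transcript of library 1, held 33.4% and 1.03%. Ndufv2-201 held 93.7% and 46.5% of the counts of Ndufv2, and Ndufv2-203 held 6.09% and 53.4%. Ndufb5-203 held 72.4% and 28.2%, and Ndufb5-204 held 24.9% and 46.3%. In Ndufab1 no transcript passed 30.1% in either library. In Ndufs5, with 40.59 counts in library 1, Ndufs5-204 went from 61.9% to 0% and Ndufs5-201 from 38.1% to 99.5%.

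Some members share sequence with other genes, which leaves the source of their reads uncertain. At 95% identity over at least 50% of the shorter transcript and 100 bases, 13 of the 45 genes matched 16 other genes, 14 of them in the tables. Most of these are processed pseudogenes with few or no counts. Ndufa12 had 1 such copy with 1.07% of the summed counts in library 2, and the copies of Ndufab1 held 2.07% in library 1 and 3.15% in library 2. The copies of Ndufs3, Ndufs6 and Ndufb11 held under 1% in both libraries, those of Ndufaf7, Ndufb2, Ndufb8 and Ndufc1 held none, and the partners of Ndufb3 and Ndufb9 were not analysed here.

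Ndufb4 and Ndufs5 stand apart by the share of counts that went to a copy, and are shown with it for that reason. Ndufb4c, an intronless copy on chromosome 15 that GENCODE M21 lists as a processed pseudogene, matches the whole 390-base coding sequence of Ndufb4 without a mismatch. BC002163, a processed pseudogene on chromosome 16, differs from the coding sequence of Ndufs5 at 2 of 319 aligned bases. The stretches below are coding sequence from GENCODE M21 transcripts (GRCm38), the opening 60 bases of Ndufb4 and coding bases 51 to 110 of Ndufs5, each with the matching part of the copy, and capitals mark the mismatches.
Ndufb4 (chr16:37654300-37654359, minus strand, exonic): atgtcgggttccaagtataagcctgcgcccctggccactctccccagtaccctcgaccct
Ndufb4c (chr15:73809837-73809896, minus strand, exonic): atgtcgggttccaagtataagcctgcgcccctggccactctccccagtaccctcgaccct
Ndufs5 (chr4:123715970-123716029, minus strand, exonic): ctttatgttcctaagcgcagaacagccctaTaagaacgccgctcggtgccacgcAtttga
BC002163 (chr16:42955681-42955740, plus strand, exonic): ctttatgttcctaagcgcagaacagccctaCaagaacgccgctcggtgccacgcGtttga
The mismatches are T81C and A105G, counted from the first base of the start codon of Ndufs5, with the base of Ndufs5 written first.

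The copy of Ndufb4 changed the result for that gene. Ndufb4 had 1392.5 counts in library 1 and 895.31 in library 2, whereas Ndufb4c had 289.5 and 1915.69, so the copy took 17.2% of their summed counts in library 1 and 68.1% in library 2. Summed, they had 193 and 649 TPM and a log2 ratio of 0.28, in place of −1.09 for Ndufb4 alone and 2.27 for the copy alone. On the TMM scale without GC correction, Ndufb4 is thus lower in library 2 only while its copy is kept apart. The sum is an alternative added after the values were seen, and it was not fitted with the GC trend removed.

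For Ndufs5, an accessory subunit on the side of the intermembrane space, the copy mattered in library 1. Ndufs5 had 40.59 counts in library 1 and 1480.37 in library 2, and BC002163 had 83.41 and 10.63. The copy took 67.3% of the summed counts in library 1 and 0.713% in library 2. The log2 ratio of the sum was 3.13, against 4.7 for Ndufs5 alone, and it remained above the limit.

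**Figure D4:**
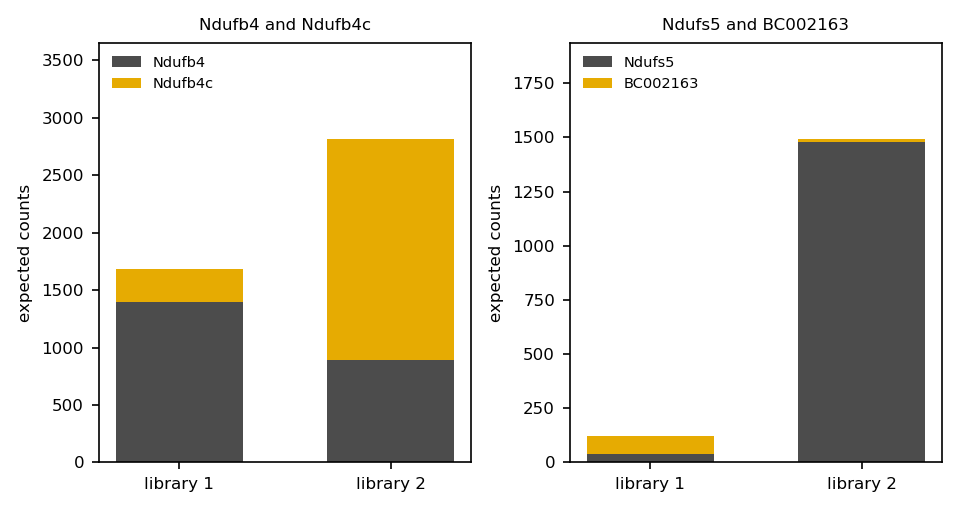
Expected counts of Ndufb4 and its copy Ndufb4c (left) and of Ndufs5 and its copy BC002163 (right) in each library, stacked on linear axes that start at 0. Ndufb4c holds most of the sum in library 2, and BC002163 holds most of the small sum in library 1.

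Exons of 18 members overlap those of a neighbour in GENCODE M21, on the opposite strand in 18 of 21 pairs, and no source used here says whether the counting used strand. The largest share with counts belongs to Ndufb6, of whose exonic bases 39% overlap Smim27 (46 counts in library 1 and 135 in library 2, beside 1735 and 1933 for Ndufb6). Ndufa13 overlaps Tssk6 over 30%, with 0 and 6 counts for the neighbour. In both pairs the neighbour had far fewer counts than the member in library 2.

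Promoters of respiratory-chain genes are known as targets of NRF1, of ETS factors such as GABP, of YY1 and of the estrogen-related receptors, so these letters were searched in the RefSeq promoter windows (GRCm38.p6, 250 bases before to 50 bases after the start, both strands). Windows were found for 40 members. The YY1 letters AANATGGCG were in 8 of the 40 (20%), against 2.76% of 27025 genes with a window and 3.64% of protein-coding genes. The NRF1 letters GCGCATGC were in 5 (12.5%), against 3.05% and 3.94%. The ETS letters CCGGAAGT were in 1 (Ndufs3, 2.5% against 4.31%) and the receptor letters TCAAGGTCA in none (0.466% of all genes). The SP1 letters GGGCGG were in 21 (52.5% against 38.2%) and the TATA box letters TATAAA in 4 (10% against 15.7%). The windows of the members had a median GC content of 59.3%, against 52.7% for all windows and 56.3% for those of protein-coding genes. No test was made of these shares. Within the 200 bases before the start only, the YY1 letters were left in Ndufa7 alone. The NRF1 letters were left in Ndufa6, Ndufa8, Ndufa11 and Ndufaf4, the ETS letters in no member, and the SP1 and TATA box letters in fewer members. Of the 8 printed YY1 matches 6 begin after the start. The shares of all genes were not computed for the shorter stretch.

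For each of the 5 genes with the NRF1 letters, 1 stretch is shown with 10 bases on either side, capitals marking the match. Ndufaf4 has a further match just after the start, which is not shown. In 3 of the stretches the letters match on both strands at an offset of a pair of bases, so the palindrome GCGCATGCGC appears.
Ndufa6 (chr15:82354357-82354384, minus strand, before the transcripts): ccgcggtagaGCATGCGCattgcagagc
Ndufa8 (chr2:36049329-36049356, minus strand, 5′ UTR in GENCODE): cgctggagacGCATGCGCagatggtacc
Ndufa11 (chr17:56717692-56717721, plus strand, before the transcripts): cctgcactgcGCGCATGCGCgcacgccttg
Ndufaf4 (chr4:24897960-24897989, plus strand, before the transcripts): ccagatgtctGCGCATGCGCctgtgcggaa
Ndufaf5 (chr2:140170652-140170681, plus strand, 5′ UTR in GENCODE): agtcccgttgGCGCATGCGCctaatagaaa
NRF1 itself had 1.67 TPM in library 1 against 9.66 TPM in library 2.

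The 8 YY1 matches all lie on the coding strand, and in 6 of them the ATG within the match is the annotated start codon of the gene. Ndufaf8 and Ndufb11 are the other two. These matches therefore overlap the context of the start codon, and a match is a description of letters only. The level of Yy1 was 24.5 TPM in library 1 against 21.2 TPM in library 2. The windows below are cut at the end of the RefSeq window where it was reached.
Ndufa7 (chr17:33824617-33824645, plus strand, start codon): gagcggaaggAATATGGCGtccgctactc
Ndufa9 (chr6:126849097-126849125, minus strand, start codon): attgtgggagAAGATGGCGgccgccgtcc
Ndufc1 (chr3:51408915-51408943, minus strand, start codon): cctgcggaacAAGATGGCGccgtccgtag
Ndufs4 (chr13:114388045-114388069, minus strand, start codon): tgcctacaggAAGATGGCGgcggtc
Ndufs6 (chr13:73328433-73328459, minus strand, start codon): ggtcaccggcAAGATGGCGgcggtgct
Ndufs7 (chr10:80249463-80249491, plus strand, start codon): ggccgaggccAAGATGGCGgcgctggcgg
Ndufaf8 (chr11:120098934-120098962, plus strand, 5′ UTR in GENCODE): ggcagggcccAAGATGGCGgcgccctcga
Ndufb11 (chrX:20617812-20617840, minus strand, before the transcripts): tcaccaacacAAAATGGCGacgagaagag

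The other genes of complex I are given by genome. All 7 mitochondrially encoded subunits were called higher in library 1, as were 24.9% of all genes, with a median log2 ratio of −2.77 and a median GC content of 35.7%. With the GC trend removed 2 of the 7 were called higher in library 1, beside 10.2% of all genes, and the median was −0.78. mt-Nd1 had 39044 TPM in library 1 against 17582 TPM in library 2, and mt-Nd6, the subunit encoded on the light strand, had 1081 and 494 TPM. Of 12 nuclear genes listed with complex I under other names, library 2 was called higher for 6 and library 1 for 2. The shares of all genes were 35.5% and 24.9%, and the median log2 ratio of the 12 was 0.78. Ndufb1-ps and Coa1, also on the list, were not found in the tables. With the GC trend removed, library 2 was called higher for 0 of 11 and library 1 for 1, beside 11.1% and 10.2% of all genes. Ecsit, an assembly factor, had 1.96 and 50.6 TPM, whereas Tmem126b and Tmem70, also assembly factors, were called higher in library 1 with 27.9 and 49.8 TPM there and 29.9 and 54.8 TPM in library 2. Ndufa4l2, a paralog of Ndufa4 induced by low oxygen in other settings, was at 0 counts in library 1 and had 74 counts (5.85 TPM) in library 2.

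The nuclear subunits of the other complexes were more often called higher in library 2 than in library 1. For complex II 2 of 4 genes were called higher in library 2 and none higher in library 1 (median log2 ratio 1.16). For complex III the counts were 6 and 1 of 9 (4.09), for complex IV 6 and 0 of 10 (1.5), and for ATP synthase 9 and 1 of 15 (2.04). The background is the same 35.5% and 24.9% of all genes. With the GC trend removed the genes called higher in library 2 were 1 of 4, 4 of 8, 4 of 8 and 7 of 15 in the same order, and 0 were called higher in library 1. Among 8 regulators of mitochondrial genes, library 2 was called higher for 2 and library 1 for 4. The counts were 1 and 0 of 8 with the GC trend removed, beside 11.1% and 10.2% of all genes. With total counts they were 3 and 0, beside 49.1% and 4.57%, so the calls toward library 1 depend on the scaling. Esrra, a nuclear receptor of 61.8% GC, had 0.03 TPM (2 counts) and 72.9 TPM (2338 counts), and Ppargc1a, a coactivator of 41.7% GC, had 25.9 and 30.1 TPM.

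**Figure D5:**
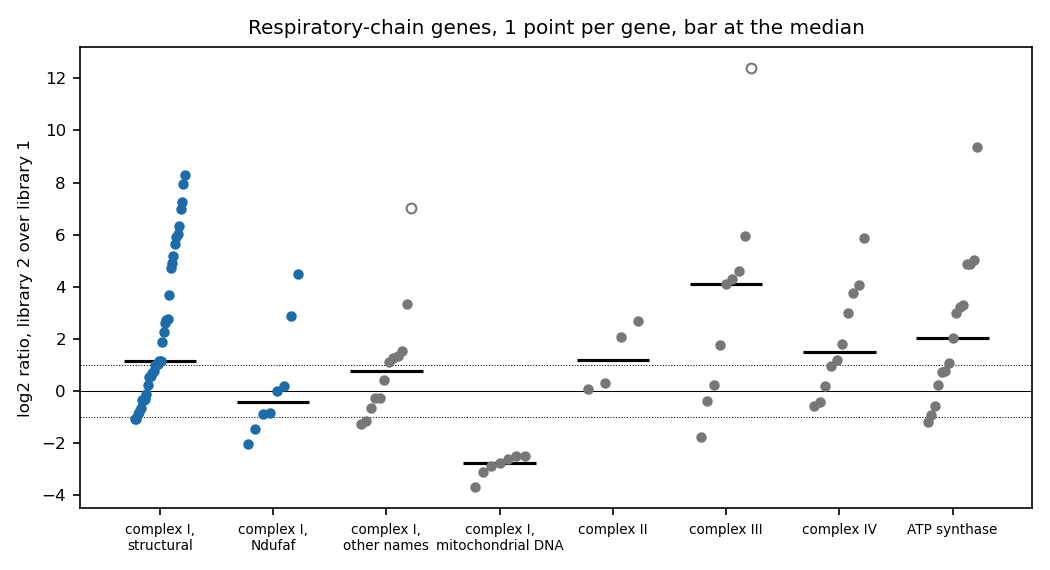
Log2 ratio of library 2 over library 1 for each gene of complex I (blue for the 36 structural and 8 Ndufaf genes, grey for the other lists) and of complexes II to IV and ATP synthase, with a black bar at the median and dotted lines at 1 and −1. Open circles are genes at 0 counts in library 1, whose fitted ratio depends on the prior count, and the 7 mitochondrially encoded genes are the only list wholly below −1.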

How the data were processed

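Polyadenylated RNA of 1 kidney sample was sequenced in 2 libraries. The authors deposited tables per gene and per transcript (mm10, annotation M4), per the text deposited with them, and the sources used here do not name the aligner or quantifier. Expected counts were deposited unnormalized, and TPM as a length-corrected share, per the file headers. The share of each transcript was deposited by the authors in percent, and bounds of a credibility interval of TPM were deposited at an unstated level. Symbols, biotypes and transcript sequences came from GENCODE M21, promoter windows from RefSeq (GRCm38.p6) and roles from textbook knowledge.

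After rounding of the expected counts, libraries were scaled with TMM in edgeR 4.0.16. With 1 library on each side no residual spread can be estimated, so each of 15553 genes with at least 10 counts in sum was given a two-sided exact conditional binomial test in scipy 1.17.1, with Benjamini-Hochberg adjustment. Log2 ratios used a prior count of 0.5. The test was checked on simulated counts that held counting error only and no GC trend. That check does not show how the test behaves where the ratio moves with GC content, as it did here. GC content is that of the transcript with most counts among those whose deposited length was within 10% of GENCODE M21, and the trend was a local regression (statsmodels 0.14.6, span 20%) over genes with at least 100 counts. Shared stretches were searched with blastn 2.17.0. Intervals are exact 95% intervals for counting error only.

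The members, lists, roles, motifs and tests were chosen with earlier results of these data known. Values were given for the highest and lowest levels overall and by role, the 5 largest ratios each way, genes under TPM 1, and genes with a shared stretch or a different leading transcript. The printed windows were chosen after the matches were seen. The settings tried were DESeq2 1.42.0 size factors, total counts, TMM without mitochondrial genes, count minimums of 1 and 100, posterior mean counts, an edgeR exact test with an assumed dispersion of 0.01, removal of the GC trend, no minimum ratio, other TPM minimums and sums with copies. Promoters of Ndufa2, Ndufaf6, Ndufb9 and Ndufs1 and all protein sequences were not analysed here. Counts and medians include 1 member that is not reported here by itself.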

Additional observations from a re-analysis of the deposited data

How the results depend on the processing

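The number of complex I genes called higher in library 2 stayed within 1.5 times of 22 under all 9 alternatives. It was lowest with the GC trend removed, at 15 of 42 genes, and the genes were not all the same. Ndufa12, Ndufv3, Ndufs6, Ndufb8, Ndufb10 and Ndufaf3 were then not called, Ndufb9 was called higher in library 1, and Ndufa1 in library 2. The number called higher in library 1 was 4, but 1 with total counts and 14 without a minimum ratio. The median log2 ratio of the 45 genes was 0.98, but 1.89 with total counts and 0.28 with the GC trend removed, and 9403 calls over all genes became 3155 with the trend removed. The share of TPM, a mean of 0.794%, became 1.65% without mitochondrial genes and their copies. With the GC trend removed, the sign of the log2 ratio turned for 14 of 42 genes, of which 5 were called before or after: Ndufaf3 (−0.08), Ndufb10 (−0.77), Ndufb2 (−1.19), Ndufb8 (−0.3) and Ndufb9 (−1.47). The other 9 were not called either way. Summed with its copies, Ndufb4 turned to 0.28, an alternative chosen after seeing the data. The cause of these changes was not tested. Leaving out each library in turn gave a median TPM of 31.2 to 252, a share of TPM of 0.337% to 1.25%, and 40 to 45 genes at TPM 1 or more. No paired analysis was possible because there is 1 group. Although library 1 held more counts in all, 13 genes had fewer than 100 counts there and 8 fewer than 30, and these 8 had the largest counting errors of their ratios. The deposited TPM lay outside its own deposited interval for 2 genes in library 1 and 30 in library 2.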
